A study of Mus musculus with 10 samples.

Results

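The 10 genes described here encode the core of the calcium cycle of the heart muscle cell: Atp2a2, Pln, Sln, Ryr2, Trdn, Jph2, Casq2, Hrc, Slc8a1 and Camk2d. They were chosen by name, for their function, from the 55357 genes of the heart count table, and all 10 were found there. In each beat, calcium that enters through channels of the plasma membrane opens the ryanodine receptor, and the calcium released from the sarcoplasmic reticulum (SR) drives contraction. Relaxation follows when the SR pump takes calcium back up, under the control of small inhibitory peptides, and the sodium-calcium exchanger carries the rest out of the cell. Loss of pump function relative to its inhibitor, and a shift of calcium removal from the pump to the exchanger, are textbook features of failing heart muscle.

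Poly(A) RNA of 6 mouse hearts was sequenced, 3 from animals given the cytokine interleukin-10 (IL-10), which dampens inflammation, and 3 from animals given saline. All 6 came from Cd163-/- mice, which lack the macrophage scavenger receptor CD163, on a C57BL/6 background. The design text describes transverse aortic constriction (TAC), in which a tie around the aorta raises the load on the left ventricle, in males of 8 weeks. Subcutaneous IL-10 was given as a recombinant protein, at 50 µg/kg/day, on a schedule of days that began on day 0 and ended on day 27 after TAC. Which surgery each heart had is not stated. The hearts analysed here include no wild-type group, and neither group is labelled as sham-operated or as TAC. The series also holds thioglycolate-elicited peritoneal macrophages kept in culture with 100 nM dexamethasone, a glucocorticoid, for 48 h, from Cd163-/- (n = 2) and wild-type (n = 2) mice. Nothing in the labels says that replicates were separate animals, so p-values reflect only how far these samples spread, and that spread may be technical.

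The heart libraries held 13.5 to 14.9 M counts (M for mega) and the macrophage libraries 16.7 to 18.6 M. Mitochondrially encoded genes took 33.7% to 39.4% of heart counts, with overlapping groups. Cd163 had 9 and 14 counts in Cd163-/- macrophages and 352 and 205 in wild type, and 34 to 57 counts in each of the Cd163-/- hearts. Per M of all counts, this was 0.483 and 0.813 in Cd163-/- macrophages and 2.36 to 3.815 in the hearts. Without wild-type hearts, the loss of Cd163 message in the hearts was not tested. The protocol text names livers as the source of RNA. The 13 cardiomyocyte markers were abundant in every heart, with a summed level of 50045 to 58910 CPM (counts per M counts, on TMM-scaled library sizes) in IL-10 hearts and 53447 to 63345 CPM in saline hearts. Of the 8 atrial markers, 3 averaged under 1 CPM: Bmp10 (0 counts in all 6 hearts), Myl7 (1 to 4 counts) and Mybphl. The other 5 had counts in every heart, from Myl4 at 0.967 to 1.46 CPM to Nppa at 248 to 1612 CPM.

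The messages of the 2 peptide inhibitors of the pump are shown first, because Pln was abundant in these hearts and Sln was nearly absent from the counts. The coding sequences of Pln, on chromosome 10, and Sln, on chromosome 9, run from start to stop codon (GENCODE M21, GRCm38, 5′ to 3′). Capitals mark the longest run of bases that both share.
Pln: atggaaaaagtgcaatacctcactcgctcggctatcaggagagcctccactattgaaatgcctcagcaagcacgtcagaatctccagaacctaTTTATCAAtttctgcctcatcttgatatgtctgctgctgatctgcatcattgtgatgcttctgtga
Sln: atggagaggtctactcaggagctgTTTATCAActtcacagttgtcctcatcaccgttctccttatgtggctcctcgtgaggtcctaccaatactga
The shared run was 8 bases long, in coding sequences of 159 bases for Pln and 96 bases for Sln.

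The start region of Slc8a1 is shown because it was the member that fell, and that of Pln beside it as the abundant inhibitor. Each window holds the 250 bases before the transcription start given by RefSeq (GRCm38.p6), on the gene's own strand. Capitals mark matches, on either strand, to the TATA box TATAAA or to the GATA motif AGATAA.
Slc8a1, chr17:81738388-81738637, minus strand: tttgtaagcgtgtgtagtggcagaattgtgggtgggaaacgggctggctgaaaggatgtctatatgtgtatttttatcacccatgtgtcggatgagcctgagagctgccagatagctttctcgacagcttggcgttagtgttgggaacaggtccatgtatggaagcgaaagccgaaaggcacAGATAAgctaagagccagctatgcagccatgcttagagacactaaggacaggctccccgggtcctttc
Pln, chr10:53337436-53337685, plus strand: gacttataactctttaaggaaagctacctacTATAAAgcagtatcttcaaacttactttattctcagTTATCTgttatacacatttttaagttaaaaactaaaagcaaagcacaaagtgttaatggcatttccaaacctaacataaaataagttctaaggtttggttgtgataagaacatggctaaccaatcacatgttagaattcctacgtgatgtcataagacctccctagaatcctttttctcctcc
The Slc8a1 window held 1 AGATAA, whose first base lay 68 bases before the start. In the Pln window, TATAAA began 219 bases before the start and AGATAA stood on the opposite strand, 183 bases before it. TATAAA was found in 12.37% and AGATAA in 9.99% of the 32851 RefSeq windows of this length. A match to the MEF2 motif was found in the Casq2 window, 69 bases before the start, and in 2.92% of all windows. A CArG box, held by 1.47% of all windows, was found in none of the 7 members with a RefSeq window (Ryr2, Pln, Casq2, Camk2d, Slc8a1, Jph2 and Hrc). These matches are letters in a window and were not tied to any measured binding. Promoter windows of Atp2a2, Sln and Trdn were not used here.

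In hearts of IL-10-treated Cd163-/- mice, Atp2a2, the SR calcium pump SERCA2, was 1.54-fold higher than in saline hearts, and Slc8a1, the sodium-calcium exchanger NCX1, stood at 0.637 of the saline level. These were the 2 members that passed the test. Pln, Hrc, Jph2 and Ryr2 were also higher in all 3 IL-10 hearts than in any saline heart but did not pass it, while Casq2, Trdn and Camk2d overlapped between the groups. Sln, with 5 counts over the 6 hearts, was too low to test. Of the 9 members tested, 1 rose, beside 6.86% of all 13718 genes tested, and 1 fell, beside 6.7% (13.6% in either direction), by edgeR's quasi-likelihood test with Benjamini-Hochberg adjustment. Groups did not overlap for 6 of the 9, with 5 higher and 1 lower in IL-10 hearts. Over all tested genes, 15.7% were higher and 15.8% lower without overlap, 31.6% in all. At an unadjusted p under 0.05, 4 members were higher and 1 was lower, beside 28.3% of all tested genes in either direction. The median log2 fold change of the 9 was 0.23, against -0.01 over all tested genes. In whole tissue, fewer cells of a type and less RNA per cell cannot be told apart.

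**Figure D1:**
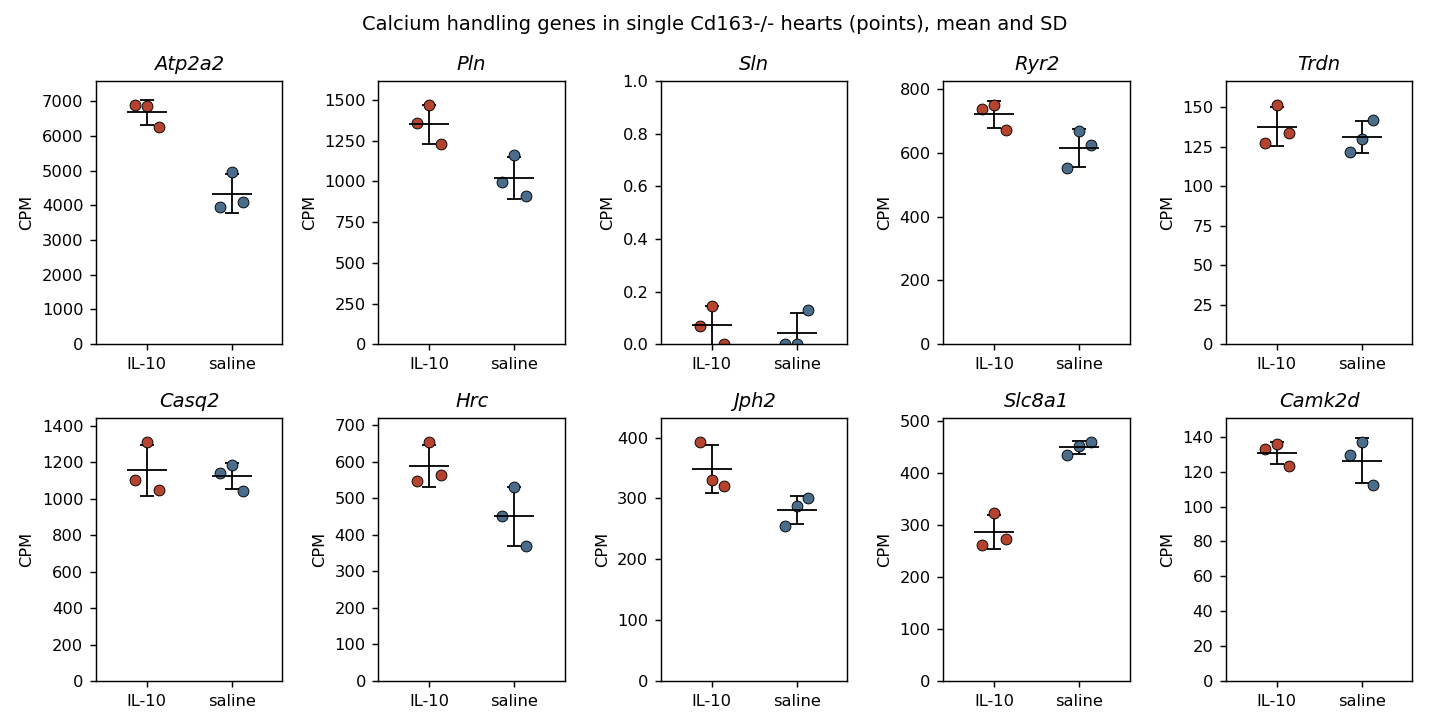
Level of each of the 10 genes in each heart (CPM, linear axis from 0), with IL-10 hearts left of saline hearts; points are single hearts, and the bar and whiskers are the mean and SD of 3. Atp2a2 stood at 6268 to 6892 CPM in IL-10 hearts and 3942 to 4974 CPM in saline hearts, Slc8a1 at 262 to 322 CPM and 435 to 459 CPM, and Sln stayed under 1 CPM.

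Atp2a2, on chromosome 5, pumps calcium from the cytosol into the SR. It had 6892, 6868 and 6268 CPM in the 3 IL-10 hearts, against 3942, 4974 and 4100.4 CPM in the 3 saline hearts. The lowest IL-10 heart was above the highest saline heart. The means were 6676 ± 354 CPM in IL-10 and 4339 ± 556 CPM in saline hearts (SD, n = 3 each). The log2 fold change was 0.62 (SE 0.15, adjusted p = 0.00976, edgeR quasi-likelihood). Without saline replicate 1, the lowest heart for this gene, it was 0.56 with an adjusted p of 0.0736, above the threshold of 0.05. Atp2a2 was by far the most abundant member, with 57.2% to 59.6% of the counts of all 10 genes in IL-10 hearts and 49.1% to 52.2% in saline hearts. Its paralogs were scarce on the same scale, with Atp2a3 at 6.39 to 7.11 CPM in IL-10 and 5.05 to 9.55 CPM in saline hearts, and Atp2a1, the fast skeletal muscle pump, under 1 CPM in every heart. The longest run that the coding sequence of Atp2a2 shares with either is 44 bases.

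Pln, on chromosome 10, encodes phospholamban, which slows the pump until it is phosphorylated. It stood at 1357, 1470.2 and 1230.3 CPM in IL-10 hearts, against 995, 1159.8 and 910.4 CPM in saline hearts. Every IL-10 heart was above every saline heart, by a small margin between the closest hearts. The log2 fold change of 0.40 (SE 0.13) did not pass the test at an adjusted p of 0.0558, while 6 of 15 alternative fits called it. The exons of Pln overlap Cep85l and, over 59.6% of their length, the opposite-strand gene Gm47644. The library kit does not mark the strand, so reads of these genes cannot be told apart where they overlap. Per heart, Gm47644 had 100 to 200 counts and Cep85l 143 to 237, whereas Pln had 17501 to 20017 in IL-10 and 13596 to 15909 in saline hearts. These counts cannot show how many reads of the overlap were given to each gene or to none. The part of the overlap in the level of Pln, per kb or as a ratio, was not tested.

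Sln, on chromosome 9, encodes sarcolipin, the inhibitor of the pump in atrium and skeletal muscle. It had 1, 2 and 0 counts in IL-10 hearts and 0, 0 and 2 counts in saline hearts, in the libraries whose Pln is quoted above. All 6 values were at or below the floor of 3 counts, which corresponds to 0.192 to 0.220 CPM, so no fold change is given. Of the 8 atrial markers measured beside it, Bmp10 was at 0, and Myl7 and Mybphl were under 1 CPM in every heart. Of the 5 that could be tested, Nppa, a natriuretic peptide of the atrium and of the loaded ventricle, fell (log2 fold change -1.70, adjusted p = 0.000357), and Kcnj3, a potassium channel subunit, rose (0.76, adjusted p = 0.0019). Nppa made up most of the list's summed level of 299 to 592 CPM in IL-10 hearts and 908 to 1650 CPM in saline hearts. Which chambers were sampled is not stated.

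Ryr2, on chromosome 13, is the channel that releases calcium from the SR. Its level was 738, 751 and 674 CPM in IL-10 hearts, against 553, 669 and 625 CPM in saline hearts. The closest hearts of the 2 groups were almost level, and the log2 fold change of 0.23 (SE 0.12) had an adjusted p of 0.237. Jph2, on chromosome 2, encodes junctophilin-2, which holds the SR against the plasma membrane at the sites of release. It had 393, 329.6 and 321 CPM in IL-10 hearts, against 255, 287 and 301 CPM in saline hearts, without overlap (log2 fold change 0.31, SE 0.12, adjusted p = 0.107). Trdn, on chromosome 10, encodes triadin, the anchor between the channel and calsequestrin. It had 128, 151 and 134 CPM in IL-10 hearts and 122, 129.6 and 142 CPM in saline hearts, and the groups overlapped (log2 fold change 0.07, SE 0.11, adjusted p = 0.735).

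Hrc and Casq2, which encode calcium-binding proteins of the SR lumen, did not pass the test, and they were not tested against each other. Hrc, on chromosome 7, the histidine-rich calcium-binding protein, stood at 548, 656 and 564 CPM in IL-10 hearts, against 452, 531 and 369 CPM in saline hearts. The groups did not overlap, and the log2 fold change was 0.39 (SE 0.14, adjusted p = 0.079). Casq2, on chromosome 3, is cardiac calsequestrin, the main calcium buffer of the store. It had 1104, 1314 and 1050.1 CPM in IL-10 hearts and 1144, 1188 and 1045 CPM in saline hearts. These values were interleaved, and the log2 fold change was 0.04 (SE 0.13, adjusted p = 0.88). Its sign turned under 2 of the scalings and when single hearts were left out.

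Slc8a1, on chromosome 17, exchanges calcium for sodium across the plasma membrane. It had 262, 322 and 272 CPM in the 3 IL-10 hearts, against 435, 451 and 459 CPM in the 3 saline hearts. The highest IL-10 heart was well below the lowest saline heart, and the saline hearts lay close together. The means were 285 ± 32.4 CPM in IL-10 and 448 ± 12.6 CPM in saline hearts (SD, n = 3 each). Slc8a1 fell by 0.65 on the log2 scale (SE 0.12, adjusted p = 0.00192, edgeR quasi-likelihood), and it was called in 15 of 15 alternative fits, at log2 fold changes of -0.75 to -0.58. The other exchanger genes were scarce, with Slc8a2 at 0.808 to 1.27 CPM in IL-10 and 1.03 to 1.24 CPM in saline hearts (adjusted p = 0.889) and Slc8a3 under 1 CPM throughout.

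Camk2d, on chromosome 3, is the main cardiac calcium/calmodulin-dependent kinase, which acts on the ryanodine receptor and phospholamban. It had 133, 136 and 123 CPM in IL-10 hearts and 129.6, 137 and 112 CPM in saline hearts. The groups overlapped (log2 fold change 0.05, SE 0.11, adjusted p = 0.814), and the sign turned under 2 scalings. Gene counts do not separate its splice forms, nor those of the other members. The other isoform genes did not pass the test either: Camk2a had a log2 fold change of 0.19 (adjusted p = 0.293), Camk2b of 0.58 (0.142) and Camk2g of -0.20 (0.266).

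**Figure D2:**
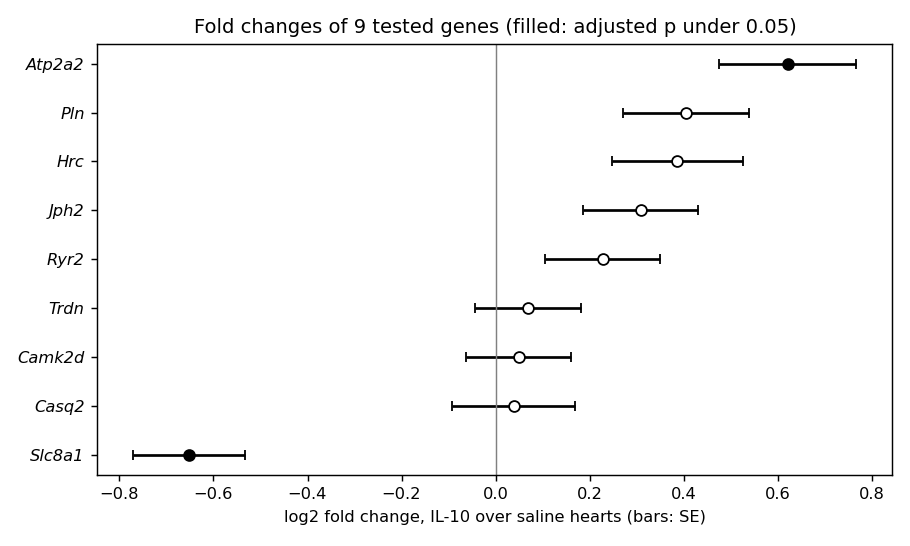
Log2 fold change of the 9 tested members, IL-10 over saline hearts, with whiskers of 1 SE from edgeR's quasi-likelihood fit. Atp2a2 (0.62) and Slc8a1 (-0.65) passed an adjusted p of 0.05, and the other 7 lay between 0.04 and 0.40.

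Ratios of counts within a heart need no scaling between libraries. The ratio of Slc8a1 to Atp2a2 counts was 0.0380, 0.0469 and 0.0435 in IL-10 hearts, against 0.110, 0.0906 and 0.112 in saline hearts. Every IL-10 heart was below every saline heart, and the mean log2 ratio differed by -1.28 (0.410-fold). Both genes had separated the groups in opposite directions, so the separation by their ratio was fixed by those levels and is no further support. The ratio of Pln to Atp2a2 was 0.197, 0.214 and 0.196 in IL-10 hearts, against 0.252, 0.233 and 0.222 in saline hearts. It was lower in all 3 IL-10 hearts, with a mean log2 difference of -0.22 (0.859-fold). For both ratios the two-sided exact permutation p was 0.1, the smallest that 3 against 3 can give, so neither could pass a threshold of 0.05. The ratio of Casq2 to Ryr2 was 1.50, 1.75 and 1.56 in IL-10 hearts and 2.07, 1.78 and 1.67 in saline hearts, and it overlapped (log2 difference -0.20, exact permutation p = 0.2). Each ratio is one of counts per gene and not of molecules, since the genes differ in length.

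**Figure D3:**
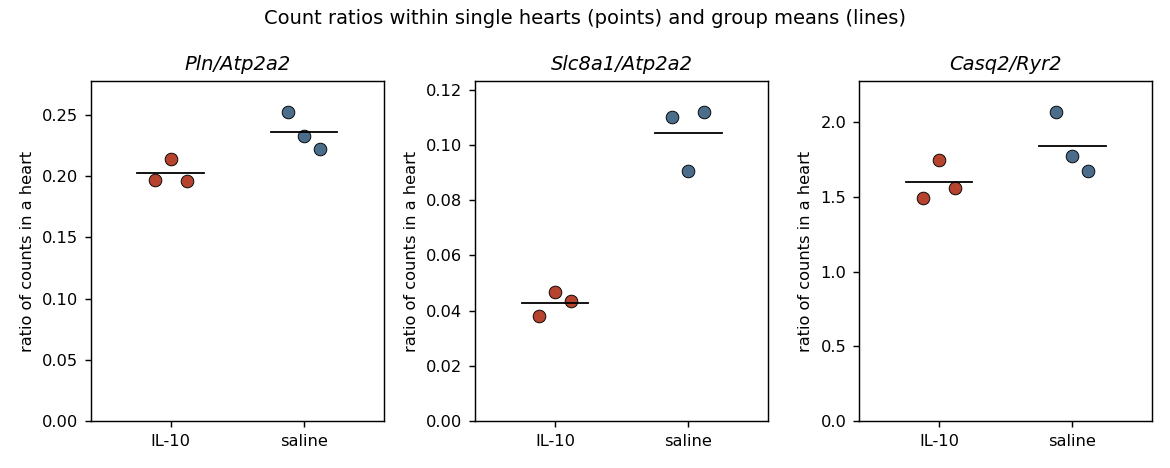
Ratios of counts between pairs of members in each heart (linear axis from 0), IL-10 left of saline, with points for single hearts and lines for the mean of 3. Slc8a1 to Atp2a2 lay at 0.0380 to 0.0469 in IL-10 and 0.0906 to 0.112 in saline hearts, Pln to Atp2a2 did not overlap, and Casq2 to Ryr2 did.

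Per kb of exon, the levels can be set beside each other. Over all 6 hearts, Atp2a2 was first with 906 CPM per kb, and its lowest heart (648) was above the highest value of any other member. Pln (430.3) and Casq2 (417) came next, and their ranges over hearts overlapped. Hrc (203), Jph2 (73.9), Ryr2 (23.2), Slc8a1 (19.5), Trdn (14.4), Camk2d (5.72) and Sln (0.0435) followed on the same scale. Over all 6 hearts, the range of Slc8a1 overlapped those of Ryr2 above it and of Trdn below it, while Ryr2 and Trdn did not overlap each other. Within IL-10 hearts the exchanger stood at 13.9 to 17.1 CPM per kb, below Ryr2 at 23.4 to 26.1. Within saline hearts it stood at 23.1 to 24.4, a range that overlapped that of Ryr2 at 19.2 to 23.2. Lengths are those of all annotated exons, whether or not the heart uses them.

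**Figure D4:**
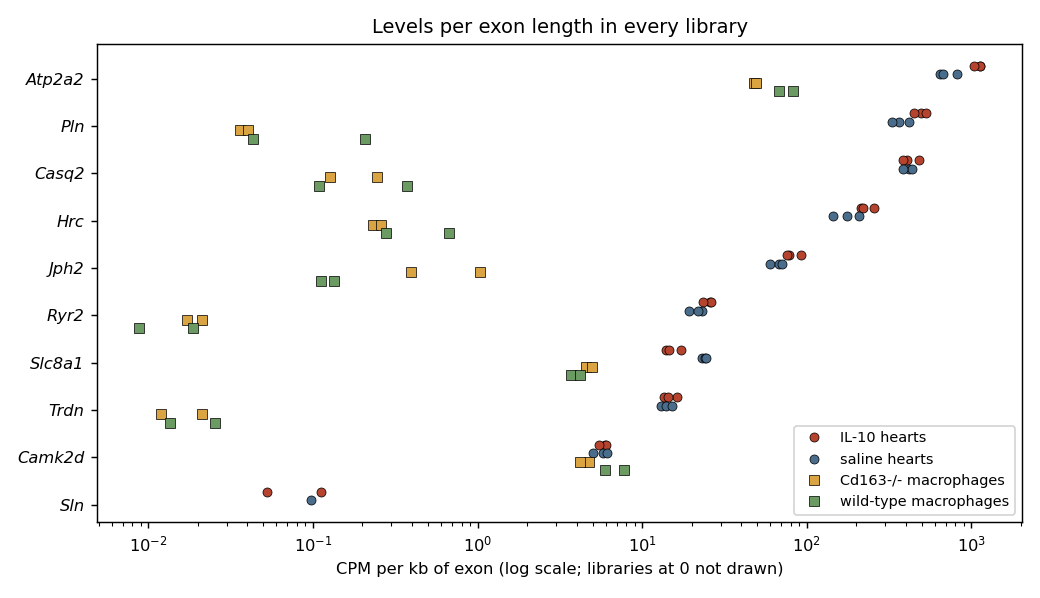
Level per kb of exon of each member (CPM per kb, log axis) in single IL-10 and saline hearts (circles) and single Cd163-/- and wild-type macrophage libraries (squares); libraries at 0 are not drawn, and the tables of the 2 tissues were scaled separately. Atp2a2 averaged 1098 CPM per kb in IL-10 and 713 in saline hearts, and Slc8a1 15.2 in IL-10 and 23.8 in saline hearts.

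The genes whose pattern over the 6 hearts was nearest to that of a called member were found by the root mean square distance of centred log2 CPM, among 7937 tested genes with a mean of 10 CPM or more. For Atp2a2 these were Nipsnap2 (distance 0.05), Kcnj11, the pore of the ATP-sensitive potassium channel (0.06), and Dedd2 (0.06). For Slc8a1 they included Tubb4b, a beta-tubulin (0.06), and Rnf115 (0.08). When hearts were centred within their group, none of the 3 nearest genes of either member remained (0 of 3).

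Of 20 other tested genes of calcium release and storage, 4 rose and 1 fell, beside 6.86% higher and 6.7% lower over all tested genes. Jph1, a junctophilin best known from skeletal muscle, had 18.2, 21.8 and 16.5 CPM in IL-10 hearts, against 9.30, 12.0 and 9.87 CPM in saline hearts (log2 fold change 0.86, SE 0.15, adjusted p = 0.00174, edgeR quasi-likelihood). Tmem38a, a potassium channel of the SR that balances charge during release, rose by 0.50 on the log2 scale (adjusted p = 0.0168). Its relative Tmem38b, named after its values were seen, rose by 0.48 (adjusted p = 0.0255). S100a1, a calcium sensor that acts on the pump and the release channel, had 548, 635 and 502 CPM in IL-10 hearts, against 401, 440.8 and 383 CPM in saline hearts, and rose by 0.46 (adjusted p = 0.0223). Casq1, the calsequestrin of skeletal muscle, was the member that fell, at 13.9, 24.1 and 16.5 CPM in IL-10 hearts, against 31.8, 32.2 and 27.9 CPM in saline hearts (log2 fold change -0.76, adjusted p = 0.00644). Of the fast skeletal muscle markers, 3 of 6 tested fell (Tnnt3, Casq1 and Myl1), and Tnnc2, Myh1, Myh2 and Myh4 were at 0 in every heart. The summed level of these markers was 125 to 154 CPM in IL-10 and 136 to 188 CPM in saline hearts, and their part in the Casq1 result was not tested. Asph, the gene of junctin, was at 0.01 (adjusted p = 0.972), and Fkbp1b, a binding partner of the release channel, was at -0.31 (adjusted p = 0.724) with under 2 CPM in every heart. The list had a median log2 fold change of -0.08. Without IL-10 replicate 2 or without saline replicate 1, 1 gene of the list rose, and without saline replicate 3, 2 did.

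Of 12 other tested genes of calcium uptake, 1 rose and 0 fell, close to the 6.86% higher and 6.7% lower over all tested genes. This was Ppp1r1a, protein phosphatase inhibitor-1, at 1.04, 2.64 and 2.95 CPM in IL-10 hearts, against 0.366, 0.875 and 0.961 CPM in saline hearts (log2 fold change 1.56, SE 0.46, adjusted p = 0.0328). The level was low and the groups were close, and the call was lost without IL-10 replicate 2, saline replicate 1 or saline replicate 3. DESeq2 called 3 genes of this list higher and 1 lower, and 2 were higher without IL-10 replicate 3. Ppp1ca, a catalytic subunit of that phosphatase, was at 0.33 (adjusted p = 0.0554) and Prkaca, the catalytic subunit of protein kinase A, at 0.32 (adjusted p = 0.0655). The median of the list was 0.14 on the log2 scale. Strit1 was not analysed here.

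None of the 26 tested genes of calcium entry and extrusion at the plasma membrane passed edgeR's quasi-likelihood test (0 higher, 0 lower), where 13.6% of all tested genes did in either direction. At an unadjusted p under 0.05 there were 2 higher and 0 lower, and DESeq2 and limma-voom also called 0. Cacna1c, the pore of the L-type calcium channel, had 139, 108 and 108 CPM in IL-10 hearts and 93.7, 110.4 and 95.1 CPM in saline hearts (log2 fold change 0.25, adjusted p = 0.201). Gem, an inhibitor of calcium channels, was at 0.53 (adjusted p = 0.176), and Cacnb3, a calcium channel subunit, at -0.56 (adjusted p = 0.201). The median of the list was 0.07.

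Of 10 genes of mitochondrial calcium transport, 2 rose and 0 fell, beside 6.86% higher and 6.7% lower over all tested genes. Mcur1, a regulator of the uniporter, had 76.8, 80.1 and 69.9 CPM in IL-10 hearts, against 57.6, 60.5 and 57.5 CPM in saline hearts (log2 fold change 0.37, adjusted p = 0.0266). Smdt1, the EMRE subunit of the uniporter, rose by 0.38 (adjusted p = 0.0481), and Ghitm was at 0.36 (adjusted p = 0.0546). Mcu, the pore itself, named after its values were seen, was at -0.11 (adjusted p = 0.652). No gene of this list was called with upper-quartile scaling, with library size alone, or without IL-10 replicate 1, IL-10 replicate 2, saline replicate 1 or saline replicate 3.

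Of 22 genes of calcium and calmodulin signalling, 4 rose and 0 fell, beside 6.86% higher and 6.7% lower over all tested genes. The median log2 fold change of the list was 0.23. Camk2n1, an inhibitor of the kinase that Camk2d encodes, had 34.0, 27.8 and 25.8 CPM in IL-10 hearts, against 14.8, 15.7 and 18.0 CPM in saline hearts. All 3 IL-10 hearts were well above the saline hearts, and it rose by 0.85 on the log2 scale (SE 0.14, adjusted p = 0.000845, edgeR quasi-likelihood). Myoz2, calsarcin-1, which binds calcineurin at the Z-disc, rose by 0.53 (adjusted p = 0.0123). Hdac5, a histone deacetylase, rose by 0.42 (adjusted p = 0.0162), as did Hdac4, named after its values were seen, by 0.50 (adjusted p = 0.0494). Without saline replicate 1, 1 gene of this list was higher, and 2 were without IL-10 replicate 2, without saline replicate 3 or with library size alone.

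**Figure D5:**
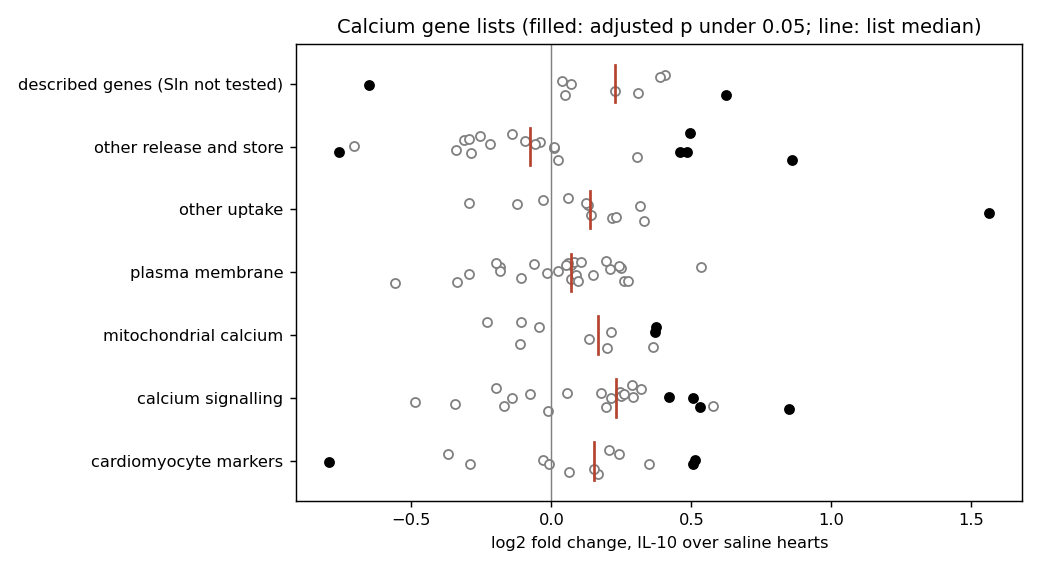
Log2 fold changes, IL-10 over saline hearts, of the tested genes of the members, the other calcium lists and the cardiomyocyte markers, with 1 point a gene, filled where called by edgeR's quasi-likelihood test, and a line at the median of each list. The plasma membrane list has 0 of 26 called, and the release and storage list has 4 higher and 1 lower of 20.

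The cell type markers did not move as 1 group beside these results. Of 13 cardiomyocyte markers, Myl3, a myosin light chain, and Mb, myoglobin, rose by 0.51 each on the log2 scale (adjusted p = 0.0261 and 0.0321), and Actc1, cardiac actin, fell by 0.79 (adjusted p = 0.00557). The median of the list was 0.15, and its summed level overlapped between the groups. Red cell genes fell in 5 of 5, with a summed level of 300 to 548 CPM in IL-10 and 582 to 1189 CPM in saline hearts. Smooth muscle and pericyte markers fell in 2 of 5 tested and rose in 0. Endothelial markers fell in 1 of 7 and rose in 0. Ventricular markers, which include Myl3, rose in 2 of 4 and fell in 0. Over all tested genes, 6.86% were called higher and 6.7% lower. Of 7 macrophage markers, 1 fell (Cd68, log2 fold change -0.61, with overlapping groups) and 0 rose. Macrophage markers summed to 798 to 883 CPM in IL-10 and 562 to 972 CPM in saline hearts. Of 7 fibroblast markers, 2 rose and 2 fell. The collagen genes Col1a1 and Col1a2 fell by 1.34 and 1.12 on the log2 scale (adjusted p = 0.00074 and 0.00152), and the matrix genes Dcn and Dpt rose by 0.47 and 0.40 (adjusted p = 0.025 and 0.0297). The summed level of the fibroblast markers, with Dcn as the largest single part in every heart, was 1876 to 2178 CPM in IL-10 and 1882 to 2020 CPM in saline hearts. The part of these shifts in the levels of Atp2a2 and Slc8a1 was not tested.

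In cultured macrophages, 6 of the 10 genes were tested. Of these, 1 was higher and 2 were lower in Cd163-/- than in wild-type cells, where 13.1% of all 13861 tested genes were called higher and 13.3% lower (26.4% in all). Atp2a2 had 292 and 297 CPM in Cd163-/- macrophages, against 409.6 and 505 CPM in wild type, and fell by 0.63 on the log2 scale (SE 0.16, adjusted p = 0.0326, edgeR quasi-likelihood). Camk2d had 107 and 94.4 CPM in Cd163-/- and 176 and 135 CPM in wild-type macrophages (log2 fold change -0.63, SE 0.16, adjusted p = 0.0392). Both groups were apart for both genes, but neither call held without Cd163-/- replicate 1 or without Cd163-/- replicate 2, and that of Camk2d was also lost without wild-type replicate 1 (adjusted p = 0.0751). Upper-quartile scaling and library size alone ended both calls. Each of the 2 calls was kept in 9 of 14 alternative fits. Slc8a1 was at 85.6 and 93.0 CPM in Cd163-/- and 69.2 and 78.4 CPM in wild-type macrophages (log2 fold change 0.28, adjusted p = 0.148).

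Jph2 was the member that rose in Cd163-/- macrophages, from few reads. It had 89 and 30 counts in Cd163-/- cells, against 8 and 9 counts in wild type (log2 fold change 2.54, SE 0.59, adjusted p = 0.0275). Without Cd163-/- replicate 1, which holds most of these reads, the log2 fold change was 1.66 (adjusted p = 0.143), and limma-voom gave an adjusted p of 0.0536. Markers of other cells differed in the same libraries: 3 of 5 tested fibroblast markers rose and 1 fell, and 2 of 5 smooth muscle markers rose, with Acta2 at 13788 and 7278 counts in Cd163-/- and 2863 and 3451 counts in wild type. Summed smooth muscle markers were at 423 to 720 CPM in Cd163-/- and 189 to 248 CPM in wild-type cells, and their part in the Jph2 result was not tested. Casq2 and Hrc were near 1 CPM and did not pass the test (adjusted p = 0.725 and 0.236). The 13 cardiomyocyte markers summed to 44.4 to 73.0 CPM in Cd163-/- and 59.8 to 92.6 CPM in wild-type cells. Their part in the low counts of Casq2 and Hrc was not tested. Ryr2, Pln and Trdn fell below the filter, and Sln had 0 counts in all 4 libraries. Per kb of exon, Atp2a2 averaged 48.5 CPM in Cd163-/- and 75.2 CPM in wild-type macrophages, and the tables of hearts and macrophages were normalised separately, so levels between them were not tested.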

How the data were processed

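Libraries of poly(A) RNA were made with NEBNext Ultra reagents, per the labels' protocols. Reads were aligned with HISAT2 2.2.1 and counted per gene with featureCounts (version not given), per the submitters' processing notes, which name both GRCm39 and mm10. The deposited values are whole-number counts per gene made by the authors. Names, exon lengths and positions came from GENCODE M21 (GRCm38), which named 52081 of 55357 gene identifiers; 0 columns were left without a sample.

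Each table was fitted alone in R 4.3.3 with edgeR 4.0.16: filterByExpr (minimum count 10, minimum total 15), TMM scaling and the quasi-likelihood test, IL-10 over saline hearts and Cd163-/- over wild-type macrophages. Benjamini-Hochberg adjustment ran over every gene tested, and genes were called at an adjusted p under 0.05. The SE was taken from the log2 fold change and the F of its test. Log2 CPM for the nearest genes used a prior count of 2. Ratios were compared by a two-sided exact permutation test. The fits were tested on simulated data. The floor of 3 counts covers counting error only.

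The members, the other calcium lists and the marker lists were chosen with earlier results of these data known. The text names all 10 members, up to 3 genes per calcium list with the smallest p in hearts plus 6 set in advance (Cacna1c, Asph, Strit1, S100a1, Fkbp1b and Ppp1r1a), and the 3 genes nearest to Atp2a2 and to each called member; Sln was not tested and has none. Not every gene under this rule is reported here. Alternatives were 3 other scalings (upper-quartile, DESeq2's size factors, library size alone), low counts kept, a minimum of 1 CPM throughout either group, DESeq2 1.42.0 with its Wald test, limma-voom (limma 3.58.1), the replicate number as a block, mitochondrial genes left out, 1 count added to ratios, and each library left out. The deviations of same-numbered hearts could not decide whether the hearts were paired.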

Additional observations from a re-analysis of the deposited data

How the results depend on the processing

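The fall of Slc8a1 was called in all 15 alternative heart fits, and the rise of Atp2a2 in 14. The count of members higher in hearts was 3 with no filter and with DESeq2, 2 with limma-voom, 2 with the replicate block, and 0 to 3 when 1 heart was left out; the count lower was 1 throughout. Pln was added by no filter, DESeq2, limma-voom, the replicate block and 2 left-out hearts, and Hrc by no filter, DESeq2 and without saline replicate 2. Genes higher in hearts numbered 549 with library size alone and 450 to 1082 without 1 heart, and genes lower 447 to 1012. Signs turned for genes far from the threshold: Casq2 was at -0.011 with upper-quartile scaling, -0.027 with library size alone, and -0.062 (without IL-10 replicate 2) to 0.12 without 1 heart. Camk2d was at -0.00022 with upper-quartile scaling, -0.011 with library size alone, and -0.022 (without saline replicate 3) to 0.11 without 1 heart, and Trdn at -0.0021 (without IL-10 replicate 2) to 0.14. Leaving out 1 heart gave log2 differences of -0.262 to -0.170 for Pln over Atp2a2, -1.38 to -1.20 for Slc8a1 over Atp2a2 and -0.263 to -0.109 for Casq2 over Ryr2. The ratio of Sln to Pln could be had only with 1 count added (log2 difference -0.05, exact permutation p = 0.9). Same-numbered hearts correlated at -0.179, 0.042 and 0.0034 in their deviations, and hearts of different number at -0.124 to 0.134. So few hearts cannot decide whether the numbers paired them. In macrophages, members lower numbered 0 with upper-quartile scaling, 0 with library size alone, 1 with the replicate block and 0 to 2 without 1 library. Members higher numbered 2 with library size alone, 0 with limma-voom and 0 to 1 without 1 library. Genes lower numbered 1220 with library size alone and 374 to 1973 without 1 library, and genes higher 360 to 1838. Casq2 there was at -1.01 to 0.74 without 1 library, above 0 without Cd163-/- replicate 1 or wild-type replicate 2. Same-numbered macrophage libraries correlated at -0.113, and a crossed replicate block, added after the data were seen, called 2395 genes higher and 2200 lower, with 1 member higher and 2 lower. Casq2 and Hrc gave no value in macrophages with the filter of 1 CPM. Without 1 macrophage library, the spread of its group was taken from the other group. The causes of these changes were not tested. Sln lay at or under the floor of 3 counts in every heart, and the part of sequencing depth in this was not tested.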
